A study of Rattus norvegicus with 15 samples.

Results

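The genes described here are 45 that carry out or time DNA replication and mitosis, 20 of them known to be used from late G1 into S phase (G1/S) and 25 from G2 into mitosis (G2/M). They were taken by gene symbol, and each was read through the probe with the highest mean raw signal over all arrays. A named probe was found for 42 of them, all 20 G1/S genes and 22 G2/M genes, among 13337 genes named on the array, and Mki67, Birc5 and Tacc3 were not analysed here. RNA came from male rat alveolar epithelial type 2 (AT2) cells, the surfactant-making cells of the alveolus, at isolation (D0) and after 2, 4, 6 and 8 days of culture (D2 to D8), in which such cells take on features of the thin alveolar type 1 (AT1) cells. No treatment is named for these cultures at any day. Each day has 3 Illumina RatRef-12 arrays. Strain, age and the purification behind each array are not given in the sources used here. The paper's figure of rat expression marks separate purifications of cells, but the labels do not tie them to arrays. The p-values therefore measure the spread between arrays, and which part of it is technical is not known. Whether a lower signal reflects fewer dividing cells or less of a transcript per cell cannot be told apart in bulk RNA.

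A cell that divides copies its DNA once and then separates the copies. In late G1, cyclin E kinase and the E2F factors turn on the genes for the MCM helicase, the sliding clamp PCNA and the enzymes that make nucleotides. In G2, genes with a CHR element in their promoters, bound in resting cells by the repressive DREAM complex, are turned on for cyclin B and CDK1, the spindle, the kinetochores and the final division of the cell. Alveolar type 2 cells are long-lived cells that can divide after injury and give rise to type 1 cells.

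The 15 arrays lay on 3 slides. Each day had 2 arrays on slide 1, and the third was on slide 2 for D2 and D4 and on slide 3 for D0, D6 and D8. Arrays are named by slide and position, so that s1H is position H of slide 1. Between 7615 and 9787 of the 22523 probes were detected per array at a detection p under 0.01, the share of negative control beads at least as bright. At isolation 11 of 11 measured AT2 markers were detected on all 3 arrays, as were 10 of 16 AT1 and 7 of 8 airway markers. By D8, 10 of the 11 AT2 markers were lower and 12 of 16 AT1 markers were higher than at D0. The shares over all probes were 8.1% lower and 9.91% higher.

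By D8 more of the mitosis genes than of the replication genes were lower than at D0, and by more in the median, a difference between the classes that was not tested. Values are on the log2 scale after variance stabilization (VSN), and changes are differences on that scale, tested with limma over all probes. A gene was called at a false discovery rate (Benjamini-Hochberg) of 0.05. At D2, 2 of 22 G2/M genes were lower than at D0 and none was higher, and 2 of 20 G1/S genes were lower and 1 higher, against 8.25% of all probes lower and 10.3% higher. At D4, 1 G2/M gene was lower and 2 G1/S genes were lower and 1 higher, against 8.09% of all probes lower and 10.9% higher. At D6, 8 G2/M and 7 G1/S genes were lower than at D0, against 8.03% of all probes lower and 10.7% higher. At D8, 15 of 22 G2/M genes and 8 of 20 G1/S genes were lower than at D0 and none was higher, against 8.1% of all probes lower and 9.91% higher. One of the 8, Cdt1, was detected on no array.

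Relative to D0, the median change over the 20 G1/S genes was -0.17 on D2 and D4, -0.54 on D6 and -0.71 on D8. Over the 22 G2/M genes it was -0.48, -0.30, -1.07 and -1.65 on the 4 cultured days in order. The median over all probes was -0.02 for D2 and for D8. All comparisons with D0 share the 3 D0 arrays. At D8, 17 of 20 G1/S and 21 of 22 G2/M genes had a mean below their D0 mean, and in 12 G1/S and 16 G2/M genes every D8 array lay below every D0 array, as in 13.9% of all probes. No gene of either class had every D8 array above every D0 array, as 15.6% of all probes did.

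**Figure D1:**
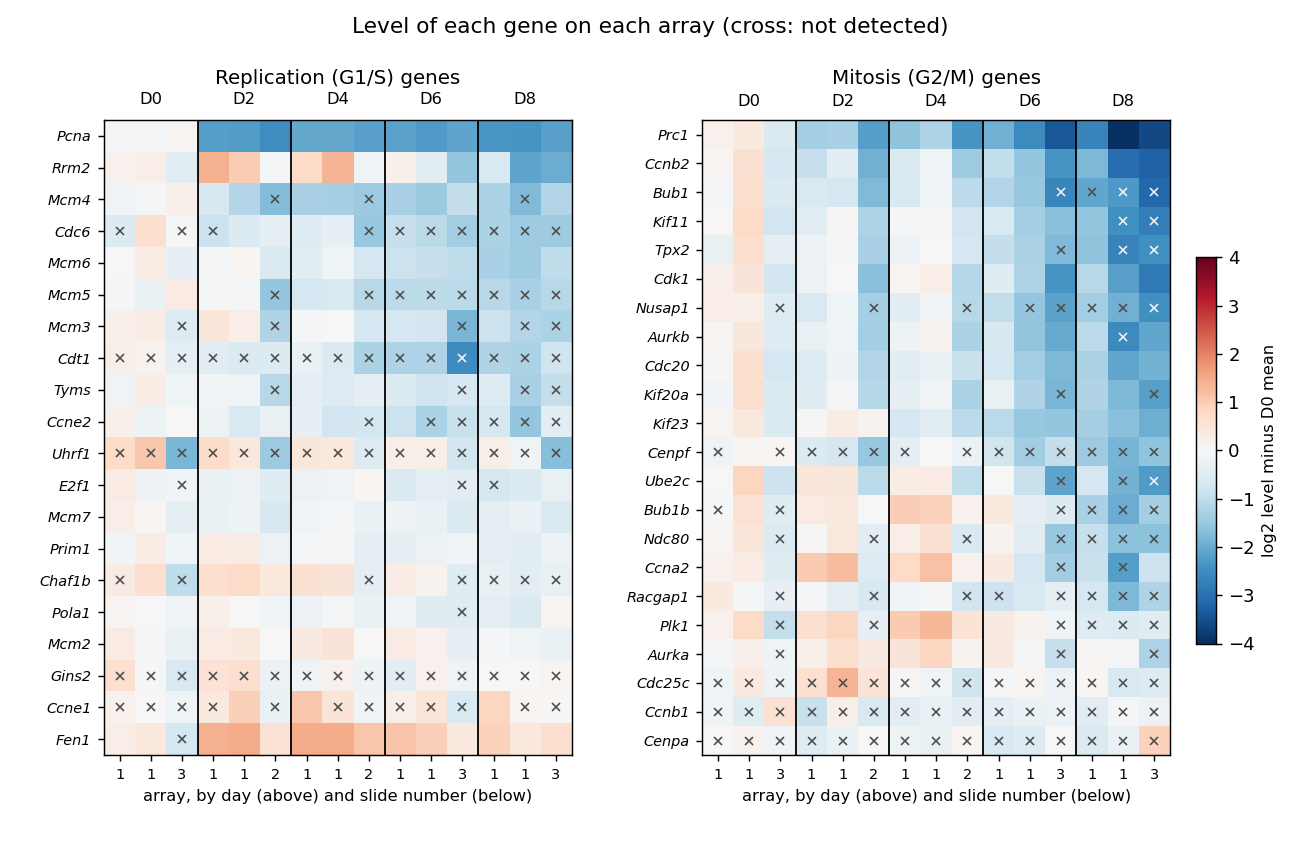
Each row is a gene and each column an array, grouped by day with the slide number below; colour gives the log2 level minus the gene's D0 mean, and a cross marks an array on which the gene was not detected. Mitosis genes turn blue mainly at D6 and D8, Pcna is blue at D2 and later, and Fen1 is above its D0 mean on every array from D2 on.

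Among the cultured days, calls appeared late. From D2 to D4 limma called none of the 20 G1/S and none of the 22 G2/M genes, against 0.639% of all probes lower and 0.755% higher, and 0 G1/S and 3 G2/M genes had an unadjusted p under 0.05, beside 2188 of 22523 probes. With slide as a term (slide 1 against the other slides), 2 G2/M genes, Kif23 and Cdc25c, were called lower at D4 than at D2. The share of all probes was 1.83%. At D6 the 1 gene of either class lower than at D2 was Kif23, against 1.13% of all probes lower and 1.09% higher. At D8, 5 G2/M genes (Bub1b, Kif23, Tpx2, Cdc25c and Prc1) and 2 G1/S genes (Mcm6 and Rrm2) were lower than at D2, against 1.42% of all probes lower and 1.16% higher, and every D8 array lay below every D2 array in 15 G2/M and 7 G1/S genes, as in 9.14% of all probes, with none the other way, as in 9.33%. The median change from D2 to D8 was -1.35 over the G2/M genes and -0.47 over the G1/S genes, beside 0.01 over all probes. From D4 to D6 and from D6 to D8 limma called no probe at all. An unadjusted p under 0.05 was found from D4 to D6 for 8 of 22 G2/M and 2 of 20 G1/S genes, beside 434 of 22523 probes, and from D6 to D8 for 4 and 0, beside 435 probes.

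Values of both classes also tended to be lowest off slide 1 from D0 to D6, but not at D8. Slide and cell preparation cannot be told apart here, because the labels do not give the preparation of each array. The 1 array of each day that was not on slide 1 had the lowest value of its day in 20 of 22 G2/M genes on D0 and D4, 18 on D2 and D6, and 9 on D8. In the G1/S genes it was lowest in 14 of 20 on D0, 17 on D2 and D4, 12 on D6 and 5 on D8, while over all probes such an array was lowest in 43.3 to 45.4%. The slide term set slide 1 against slides 2 and 3 together, so it did not adjust for differences between slides 2 and 3. The third array of D2 was on slide 2 and that of D0 and D8 on slide 3. With slide as a term in the fit, 16 of 22 G2/M genes were lower at D8 than at D2, against 3.08% of all probes. With slide as a random block, which kept the 3 slides apart, 14 were, against 2.46%. The 11 that slide as a term added to the 5 above were Cdk1, Ccnb2, Ccna2, Bub1, Aurkb, Cdc20, Kif11, Kif20a, Ube2c, Nusap1 and Ndc80. On slide 1 alone, with 2 arrays per day, 12 G2/M and 5 G1/S genes were lower at D8 than at D2, against 1.9% of all probes, and 18 and 13 were lower at D8 than at D0, against 9.89%. At D2 against D0, slide as a term gave 5 lower G2/M genes (Prc1, Cenpf, Ccnb2, Bub1 and Nusap1) and 1 higher (Cdc25c, detected on no array), against 11.4% of all probes lower and 14.1% higher. The median change from D0 to D8 was -1.78 for G2/M and -0.92 for G1/S genes within slide 1, and -1.42 and -0.32 within slide 3, which had 1 array of each of these days. Slide 3 arrays also had the lowest numbers of detected probes, 7615 to 8387, and the part of detection in the result was not tested.

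**Figure D2:**
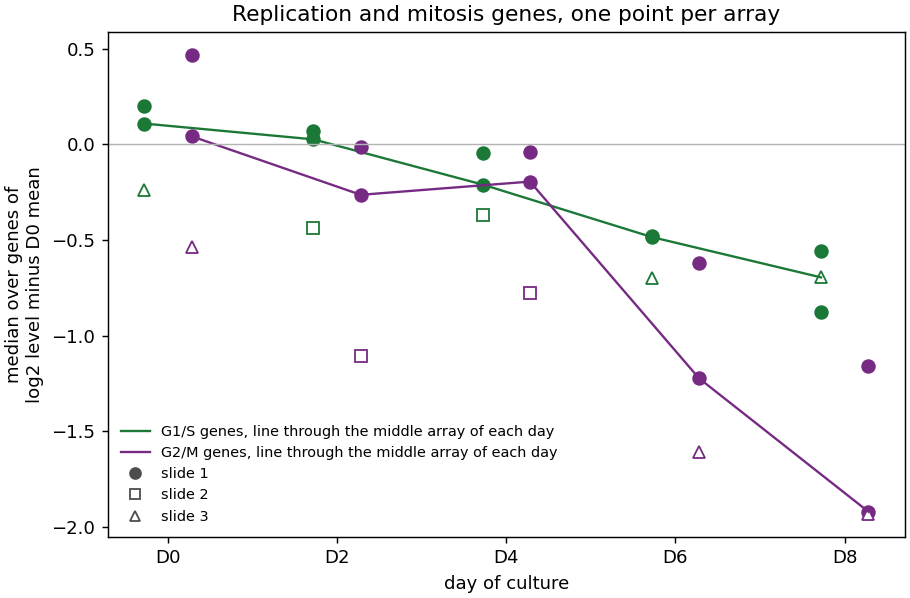
Each point is 1 array and gives the median over the G1/S or the G2/M genes of the log2 level minus the D0 mean, by day of culture; filled circles are slide 1, open squares slide 2 and open triangles slide 3, and lines join the middle array of each day. G1/S medians lie between -0.56 and -0.88 at D8 and G2/M medians between -1.16 and -1.93.

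The distance between the classes was followed array by array as the G1/S median minus the G2/M median, each relative to D0. It was 0.16, -0.36 and 0.30 at D0, 0.34, 0.04 and 0.67 at D2, -0.02, -0.01 and 0.41 at D4, 0.13, 0.75 and 0.91 at D6, and 0.60, 1.04 and 1.24 at D8. All 3 D8 arrays thus exceeded all 3 D0 arrays and all 3 D4 arrays, but not all D2 arrays. The number of G2/M genes detected was 12, 7 and 7 on the D8 arrays and 17, 19 and 12 on the D0 arrays, and for G1/S genes 12, 9 and 10 at D8 and 14, 16 and 11 at D0. The highest day mean was at D0 for 14 of 22 G2/M and 11 of 20 G1/S genes, and the lowest at D8 for 20 and 13.

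The promoters of the 2 classes differ in short words. The genes were chosen by their known phase of use and not by these words. Control through E2F and CHR is part of what is known of the phases, so the difference is no independent test. RefSeq windows (GRCr8) from 250 bases before to 50 after the start were at hand for 15 G1/S and 17 G2/M genes, and both strands were searched. E2F words (TTCCCGC or TTCGCGC or TTGCCGC or TTGGCGC) were in 11 of 15 G1/S windows (73.3%) and 3 of 17 G2/M windows (17.6%), against 9.52% of 33469 windows of the same length. CHR words (TTTGAA or TTCGAA) were in 2 of 15 G1/S windows (13.3%) and 12 of 17 G2/M windows (70.6%), against 19.7% of all. CCAAT was in 9 of 15 and 13 of 17, against 37.5% of all, and a CHR word together with CCAAT in 1 of 15 and 10 of 17, against 7.95%. A match is a run of letters and not a bound site, and a window without one says nothing of the factor.

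The windows of 3 G1/S and 4 G2/M genes with values given below are shown because they hold these words, with the words in capitals and the letters read 5′ to 3′ along the gene. They lie at chr13:42404303-42404602 (minus strand) for Mcm6, chr19:13488563-13488862 (plus) for Mcm5, chr1:216274347-216274646 (minus) for Fen1, chr1:143659231-143659530 (plus) for Prc1, chr8:79981609-79981908 (minus) for Ccnb2, chr1:244536617-244536916 (plus) for Kif11 and chr20:19265043-19265342 (plus) for Cdk1.
Mcm6: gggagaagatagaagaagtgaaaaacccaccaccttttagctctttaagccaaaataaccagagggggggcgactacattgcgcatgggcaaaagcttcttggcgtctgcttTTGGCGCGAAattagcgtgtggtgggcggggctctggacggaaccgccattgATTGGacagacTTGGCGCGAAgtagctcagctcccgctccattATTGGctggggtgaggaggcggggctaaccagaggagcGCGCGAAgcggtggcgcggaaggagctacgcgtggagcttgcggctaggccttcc
Mcm5: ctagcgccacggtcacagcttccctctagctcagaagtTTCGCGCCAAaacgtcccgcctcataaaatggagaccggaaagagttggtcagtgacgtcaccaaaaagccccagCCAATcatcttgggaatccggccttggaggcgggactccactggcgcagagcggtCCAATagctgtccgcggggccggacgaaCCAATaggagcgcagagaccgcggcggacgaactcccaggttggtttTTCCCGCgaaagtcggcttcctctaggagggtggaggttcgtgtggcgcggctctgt
Fen1: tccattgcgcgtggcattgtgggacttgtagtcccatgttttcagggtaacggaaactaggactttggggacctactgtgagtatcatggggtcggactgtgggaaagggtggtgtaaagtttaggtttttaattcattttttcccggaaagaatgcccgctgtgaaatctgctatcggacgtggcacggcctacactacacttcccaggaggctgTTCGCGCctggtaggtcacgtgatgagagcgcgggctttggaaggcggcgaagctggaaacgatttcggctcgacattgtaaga
Prc1: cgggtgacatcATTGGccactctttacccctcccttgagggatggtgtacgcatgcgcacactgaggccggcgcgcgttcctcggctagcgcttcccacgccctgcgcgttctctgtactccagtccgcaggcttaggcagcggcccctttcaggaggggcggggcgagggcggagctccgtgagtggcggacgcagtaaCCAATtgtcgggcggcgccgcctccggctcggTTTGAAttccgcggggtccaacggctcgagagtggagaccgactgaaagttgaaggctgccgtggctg
Ccnb2: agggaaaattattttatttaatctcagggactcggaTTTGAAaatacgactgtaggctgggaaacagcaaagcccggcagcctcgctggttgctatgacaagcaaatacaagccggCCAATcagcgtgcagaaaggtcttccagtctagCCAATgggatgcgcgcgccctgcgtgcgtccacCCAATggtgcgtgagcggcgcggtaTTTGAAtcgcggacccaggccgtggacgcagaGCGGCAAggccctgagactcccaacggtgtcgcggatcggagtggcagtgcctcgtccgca
Kif11: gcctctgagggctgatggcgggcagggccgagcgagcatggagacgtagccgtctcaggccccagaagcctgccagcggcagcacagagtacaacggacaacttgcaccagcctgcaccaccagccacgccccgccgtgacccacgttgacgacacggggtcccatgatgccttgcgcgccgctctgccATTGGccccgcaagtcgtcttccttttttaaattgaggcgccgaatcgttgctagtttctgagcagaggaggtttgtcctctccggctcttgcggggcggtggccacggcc
Cdk1: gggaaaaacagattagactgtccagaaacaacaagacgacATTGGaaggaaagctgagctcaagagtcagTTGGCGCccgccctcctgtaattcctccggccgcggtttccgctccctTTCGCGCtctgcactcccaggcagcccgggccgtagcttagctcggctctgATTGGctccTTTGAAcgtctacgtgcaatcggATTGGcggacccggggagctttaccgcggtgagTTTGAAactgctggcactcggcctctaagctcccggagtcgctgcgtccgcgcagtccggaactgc
In the Mcm6 window E2F words of both strands overlap in 2 places, each counted as 2 matches and shown as 1 run of capitals, with a further one 5 bases before the start. Mcm5 has overlapping E2F words and one 7 bases before the start, and Fen1 has a single E2F word. Prc1 has TTTGAA beginning 18 bases before the start with CCAAT 50 before it, and Ccnb2 has TTTGAA 43 before the start behind 3 CCAAT words. Ccnb2 and Cdk1 hold all 3 kinds of word, while Kif11 holds CCAAT (on the other strand) and none of the E2F or CHR words. Of the windows not shown, that of Pcna holds CCAAT but no E2F or CHR word, and that of Bub1 holds none of the 3 kinds.

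Among the replication genes, Pcna, the sliding clamp that holds DNA polymerase on its template, had the largest early fall. Its log2 level was 14.98, 15.03 and 15.17 at D0, 12.85, 12.82 and 12.57 at D2, 13.02, 13.01 and 12.90 at D4, 12.91, 12.79 and 12.95 at D6, and 12.74, 12.70 and 12.90 at D8, the last value of each day being the array off slide 1. Every cultured array lay far below every D0 array, and the 4 cultured days lay within a narrow band. At D2 Pcna was 4.97-fold lower than at D0 (log2 change -2.31 ± 0.17 SE, adjusted p = 3.22e-07), and from D2 to D8 the difference was 0.03 ± 0.17. No other G1/S gene had a fall of this size between D0 and D2.

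The 6 MCM genes, subunits of the helicase that opens the DNA, did not move alike. Mcm4 was also lower by D2, with 7.68, 7.78 and 8.01 at D0, 7.18, 6.66 and 6.09 at D2, 6.52, 6.49 and 6.37 at D4, 6.53, 6.34 and 6.86 at D6, and 6.55, 6.04 and 6.65 at D8. Its D2 arrays were all below its D0 arrays (-1.18 ± 0.27, adjusted p = 0.00573), and D8 minus D2 was -0.23 ± 0.27. It was detected on 2 of 3 arrays at D2, D4 and D8. Mcm6 fell later. It read 10.04, 10.31 and 9.67 at D0, 9.94, 10.08 and 9.43 at D2, 9.57, 9.83 and 9.33 at D4, 9.16, 9.09 and 8.99 at D6, and 8.71, 8.59 and 9.0 at D8. D2 overlapped D0, whereas all D8 arrays were below all D2 arrays (-1.05 ± 0.23, adjusted p = 0.0292).

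Mcm5 was dim, with 6.99, 6.77 and 7.36 at D0, 6.97, 7.0 and 5.49 at D2, 6.33, 6.43 and 5.92 at D4, 6.0, 5.99 and 5.97 at D6, and 5.94, 5.75 and 5.93 at D8. It was detected on all D0 arrays and on no D6 or D8 array, and was at least 1.53-fold lower at D8 than at D0 (adjusted p = 0.0227). A second Mcm5 probe was detected on no array. Mcm2, Mcm3 and Mcm7 did not pass in any of D2 or D8 against D0 or D8 against D2, with changes from D0 to D8 of -0.17 ± 0.23, -1.10 ± 0.43 and -0.40 ± 0.21. With slide as a term Mcm3 was lower at D8 than at D0 (adjusted p = 0.00313) and than at D2 (adjusted p = 0.0323).

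Of the genes of nucleotide supply, Rrm2, the small subunit of ribonucleotide reductase, which is made in S phase, read 9.09, 9.18 and 8.47 at D0, 10.34, 9.92 and 8.83 at D2, 9.69, 10.27 and 8.73 at D4, 9.10, 8.45 and 7.33 at D6, and 8.31, 6.81 and 6.93 at D8. On slide 1, D2 and D4 stood above D0, the slide 2 arrays of D2 and D4 stood among the D0 values, and all D8 arrays stood below D0. It was 2.35 ± 0.54 lower at D8 than at D2 on the log2 scale (adjusted p = 0.0363), while D2 minus D0 was 0.78 ± 0.54 (adjusted p = 0.419) and D8 minus D0 was -1.56 ± 0.54 (adjusted p = 0.064, and 0.00353 with slide as a term). Tyms, which makes thymidylate, was 7.22, 7.68 and 7.22 at D0, 7.25, 7.24 and 6.25 at D2, 6.99, 6.87 and 6.99 at D4, 6.83, 6.58 and 6.71 at D6, and 6.87, 6.09 and 6.42 at D8. The D8 arrays, of which 1 had a detected signal, lay below the D0 arrays (-0.91 ± 0.28, adjusted p = 0.034).

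Fen1, the nuclease that trims the ends of Okazaki fragments, was called higher at D2 and at D4 against D0. No other of the 42 genes was called higher between any days in the fit of 1 mean per day, and with slide as a term Cdc25c was also higher at D2. It was detected on 2 of 3 D0 arrays and on all others. Its level was 7.78, 7.96 and 6.83 at D0, 8.93, 9.0 and 8.10 at D2, 9.01, 9.0 and 8.64 at D4, 8.66, 8.48 and 7.90 at D6, and 8.44, 7.95 and 8.19 at D8. All D2 and D4 arrays exceeded all D0 arrays, and D6 and D8 overlapped D0. The rise at D2 was 1.15 ± 0.33 (adjusted p = 0.0228), and D8 minus D0 was 0.67 ± 0.33 (adjusted p = 0.207, and 0.0364 with slide as a term).

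**Figure D3:**
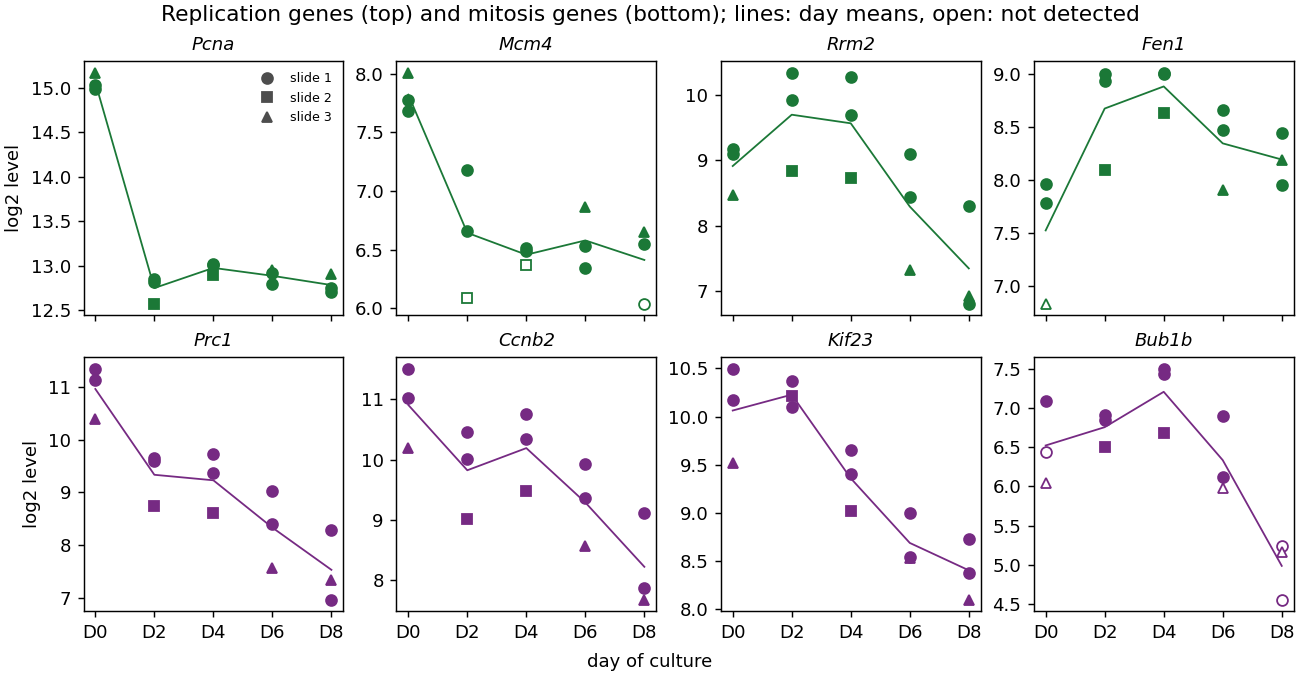
Log2 level of 4 replication genes (top) and 4 mitosis genes (bottom) on every array by day, with lines through the day means, symbols by slide and open symbols where the gene was not detected. Pcna drops once, between D0 and D2, Rrm2 and Fen1 are highest at D2 or D4, and the mitosis genes are lowest at D8.

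The cyclins E and the factors that load the helicase were dim. Ccne2, a cyclin that drives entry into S phase, was 7.24, 6.81 and 7.02 at D0, 6.83, 6.42 and 6.72 at D2, 6.70, 6.26 and 6.33 at D4, 6.18, 5.75 and 6.14 at D6, and 6.36, 5.48 and 6.61 at D8. Its D8 arrays, none with a detected signal, all read below the D0 arrays, and it was at least 1.51-fold lower at D8 (adjusted p = 0.0396). Ccne1 was detected on 3 of 15 arrays. Cdc6, a loading factor, was detected on 5 arrays, 1 of them at D0, and had a lower signal at D8 than at D0 (adjusted p = 0.00817). Cdt1, Gins2 and Uhrf1 were detected on no array, so no fold is given for them.

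The remaining G1/S genes did not pass. E2f1, a factor that turns on S phase genes, had a D8 minus D0 of -0.51 ± 0.20 (adjusted p = 0.0984). The polymerase alpha subunit Pola1 and the primase subunit Prim1 were detected on 14 and 15 arrays and differed by -0.28 ± 0.21 and -0.35 ± 0.21. Chaf1b, a histone chaperone, was detected on 3 arrays at D2 and none at D8, and its change from D2 to D8 did not pass (adjusted p = 0.298).

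Of the kinase that starts mitosis and its partners, Cdk1 and Ccnb2 were lower at D8 than at D0. Cdk1 read 10.63, 10.95 and 9.69 at D0, 10.18, 10.45 and 8.75 at D2, 10.52, 10.69 and 9.28 at D4, 9.92, 9.19 and 8.06 at D6, and 9.32, 8.25 and 7.58 at D8. All D8 arrays were below all D0 arrays (-2.04 ± 0.60, adjusted p = 0.0279), and the slide 2 arrays of D2 and D4 were low for their days. Ccnb2, a B-type cyclin that activates Cdk1, read 11.02, 11.51 and 10.19 at D0, 10, 10.46 and 9.0 at D2, 10.35, 10.75 and 9.47 at D4, 9.93, 9.36 and 8.56 at D6, and 9.12, 7.86 and 7.67 at D8. Its D8 arrays were 6.48-fold lower than its D0 arrays (-2.70 ± 0.51, adjusted p = 0.00166) and overlapped those of D2 at the edge (D8 minus D2 -1.61 ± 0.51, adjusted p = 0.156). With slide as a term, Ccnb2 was lower at D2 than at D0 (-1.09, adjusted p = 0.0121) and lower at D8 than at D2 (adjusted p = 0.0046).

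Ccna2, the cyclin of S phase and G2, had its highest day mean at D4 and changed by -1.30 ± 0.53 between D0 and D8 (adjusted p = 0.12) and by -1.89 ± 0.53 between D2 and D8 (adjusted p = 0.0919). Both passed with slide as a term (adjusted p = 0.0461 and 0.024). Ccnb1 and Cdc25c, the phosphatase that switches Cdk1 on, were detected on no array. The lower Cdc25c signal at D8 than at D2 was therefore below detection on both days.

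Of the genes of the spindle checkpoint and of exit from mitosis, Bub1, Bub1b, Cdc20 and Aurkb were lower at D8 than at D0 and Ube2c did not pass. Bub1, a checkpoint kinase, was 8.33, 9.04 and 7.83 at D0, 7.79, 7.70 and 6.63 at D2, 7.80, 8.24 and 7.35 at D4, 7.24, 6.88 and 5.80 at D6, and 6.34, 6.11 and 5.26 at D8. No D8 array had a detected Bub1 signal, all read below every D2 and D0 array, and it was at least 3.92-fold lower at D8 than at D0 (adjusted p = 0.00103). Bub1b, its partner in the checkpoint, was 6.44, 7.09 and 6.04 at D0, 6.85, 6.91 and 6.51 at D2, 7.51, 7.44 and 6.68 at D4, 6.90, 6.12 and 5.98 at D6, and 5.24, 4.55 and 5.17 at D8. It was detected on all arrays of D2 and D4 and none of D8, and was at least 1.25-fold lower at D8 than at D2 (adjusted p = 0.0106). At D0 Bub1b was detected on 1 of 3 arrays, and the lower bound for D8 against D0 was only 1.07-fold (adjusted p = 0.0042).

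Cdc20, the activator of the complex that destroys cyclin B, read 8.71, 9.29 and 7.96 at D0, 8.15, 8.46 and 7.49 at D2, 8.22, 8.38 and 7.77 at D4, 7.97, 7.31 and 6.85 at D6, and 7.39, 6.57 and 6.76 at D8. Its D8 arrays lay below those of D0 and D2, and the change from D0 was -1.75 ± 0.38 (adjusted p = 0.00441). Ube2c, the ubiquitin carrier of the same complex, had a D8 minus D0 of -1.61 ± 0.63 (adjusted p = 0.102, and 0.00189 with slide as a term). Aurkb, the kinase that corrects wrong attachments to the spindle, read 8.86, 9.24 and 8.26 at D0, 8.50, 8.63 and 7.44 at D2, 8.59, 8.93 and 7.52 at D4, 8.14, 7.19 and 6.78 at D6, and 7.74, 6.24 and 6.71 at D8. All 3 D8 arrays were below all 3 D0 arrays (-1.89 ± 0.49, adjusted p = 0.0139).

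Aurka and Plk1, kinases that build the spindle poles, had their highest day mean at D4. Neither passed between D0 and D8, with changes of -0.42 ± 0.36 and -0.53 ± 0.40. Ndc80, which ties kinetochores to microtubules, was detected on 2 arrays at D0 and none at D8 and was at least 1.22-fold lower at D8 (adjusted p = 0.0358). Cenpf, another kinetochore protein, was detected on 2 of 15 arrays, and its lower signal at D2 than at D0 (adjusted p = 0.0251) rests on 1 detected D0 array. Cenpa was detected on no array.

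Of the motors and binding proteins of the spindle, Kif11, Tpx2 and Nusap1 were lower at D8 than at D0. Kif11, the motor that pushes the poles apart, read 8.48, 9.27 and 7.72 at D0, 8.08, 8.53 and 7.27 at D2, 8.45, 8.55 and 7.75 at D4, 7.88, 7.13 and 6.81 at D6, and 6.95, 6.03 and 5.73 at D8. Its D8 arrays, of which 1 had a detected signal, were below all D0 and D2 arrays (-2.26 ± 0.45 from D0, adjusted p = 0.00243). A second Kif11 probe, detected on no array, changed by -0.29. Tpx2, which nucleates spindle microtubules, read 8.12, 9.10 and 8.02 at D0, 8.17, 8.36 and 7.12 at D2, 8.17, 8.43 and 7.73 at D4, 7.47, 7.14 and 6.66 at D6, and 6.81, 5.74 and 5.95 at D8. D0, D2 and D4 overlapped, and D8 was lower than D2 (-1.72 ± 0.40, adjusted p = 0.0363), with 1 of 3 D8 arrays detected. Nusap1, a spindle protein, was detected on 2 arrays at D0 and none at D8 and was at least 1.94-fold lower at D8 (adjusted p = 0.00282).

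Genes of the central spindle, where the cell is finally cut apart, held the largest change of all 42. Prc1, which bundles the microtubules there, read 11.14, 11.34 and 10.40 at D0, 9.60, 9.65 and 8.75 at D2, 9.36, 9.72 and 8.60 at D4, 9.03, 8.40 and 7.57 at D6, and 8.28, 6.97 and 7.34 at D8. It stepped down both between D0 and D2 (-1.63 ± 0.45, adjusted p = 0.0187) and between D2 and D8 (-1.80 ± 0.45, adjusted p = 0.0486), with no overlap of arrays in either, while D4 overlapped D2. At D8 it was 10.8-fold lower than at D0 (-3.43 ± 0.45, adjusted p = 6.44e-05).

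Kif23, a motor of the same structure, was detected on all arrays and differed by 0.16 ± 0.27 between D2 and D0. It read 10.17, 10.50 and 9.52 at D0, 10.10, 10.37 and 10.21 at D2, 9.41, 9.65 and 9.02 at D4, 9.0, 8.54 and 8.53 at D6, and 8.73, 8.38 and 8.10 at D8. All D4 arrays lay below all D2 arrays, and D8 was 1.83 ± 0.27 lower than D2 on the log2 scale (adjusted p = 0.00242). Kif20a, which carries Aurkb to the central spindle, read 8.35, 9.16 and 7.90 at D0, 7.98, 8.39 and 7.33 at D2, 8.11, 8.34 and 7.20 at D4, 8.17, 7.25 and 6.64 at D6, and 7.26, 6.68 and 6.29 at D8. Its D8 arrays were below those of D0 and D2 (-1.73 ± 0.45 from D0, adjusted p = 0.0143). Racgap1, which works with Kif23, was detected on 2 arrays at D0 and none at D8, and was at least 1.34-fold lower at D8 (adjusted p = 0.0102).

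**Figure D4:**
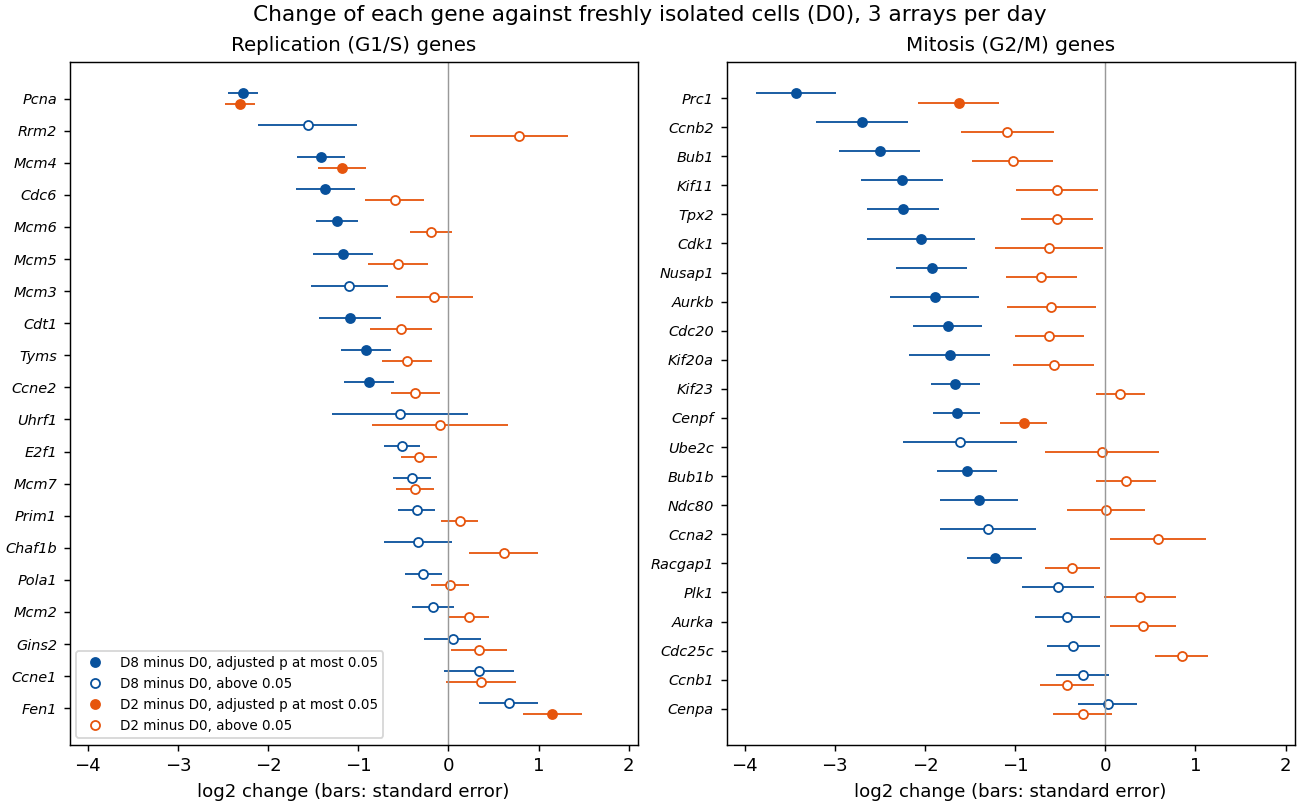
Points give the log2 change of each gene at D8 and at D2 against D0 with its standard error, 3 arrays per day; filled points passed an adjusted p of 0.05. Among G2/M genes the D8 points lie left of the D2 points for all but Ccnb1 and Cenpa, and among G1/S genes Pcna and Mcm4 have D2 and D8 points side by side.

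Some of these calls turned on single arrays. Without D0 s1H or without D8 s1J, 4 instead of 8 G1/S genes were lower at D8 than at D0. Without D2 s1C, D2 s1D or D8 s1J, the calls at D8 against D2 dropped to 1 G2/M and 0 G1/S genes, and without the slide 2 array of D2 no G2/M gene was called at D2. Fen1 at D2 lost its call without D0 s3A, D2 s1C or D2 s1D (adjusted p up to 0.104), and Prc1 at D2 without D0 s1H, D0 s1I or D2 s2A (up to 0.0853). At D8 against D2, Rrm2 lost it without D2 s1C, D2 s1D, D8 s1J, D8 s3I, D0 s1H, D0 s1I, D4 s1E or D6 s1B (up to 0.165), Prc1 without these or D4 s1K (up to 0.22), Tpx2 without D2 s1C, D2 s1D, D4 s1E, D6 s1B, D8 s1J or D8 s3I (up to 0.168), Mcm6 without D2 s1C, D2 s1D, D8 s1G or D8 s1J (up to 0.138), and Bub1b without D2 s1C, D2 s1D or D8 s1J (up to 0.0666). At D8 against D0, Ccne2 lost it without D0 s1H, D0 s3A, D2 s1C, D4 s1K, D6 s1A, D8 s1G or D8 s1J (up to 0.19), Cdk1 without D0 s1H, D0 s1I, D8 s1J or D8 s3I (up to 0.114), Tyms without the same 4 (up to 0.151), Mcm5 without D0 s1H, D0 s3A, D8 s1G or D8 s1J (up to 0.0875), Aurkb without D0 s1I or D8 s1J (up to 0.0727) and Kif20a without D0 s1I or D8 s3I (up to 0.0684). At D8 against D0, Pcna, Mcm4, Mcm6, Prc1, Ccnb2, Bub1, Kif11, Tpx2, Kif23, Bub1b and Cdc20 kept their calls whichever array was left out. The signals scaled to a common median, with no background term, gave 7 G2/M and 3 G1/S genes lower at D8 than at D0. Of the genes that kept their calls whichever array was left out, Kif11, Bub1b and Cdc20 lost them with this scaling.

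Further genes of the same processes, from lists that leave out the 45, were counted in the same way. Of 42 further mitosis genes, 15 were lower and 0 higher at D8 than at D0, with a median of -0.65, and of 34 further replication genes 8 were lower and 2 higher, with a median of -0.34, against 8.1% of all probes lower and 9.91% higher. From D2 to D8, 4 further mitosis genes (Cks2, the spindle motor Kif2c, Cdca3 and Cdca8, with Kif2c and Cdca3 detected on 1 of 3 D2 arrays) and 2 further replication genes (the clamp loader subunit Rfc4 and the polymerase alpha subunit Pola2) were lower and none was higher, against 1.42% of all probes lower and 1.16% higher. At D2 against D0, 4 further mitosis genes were lower and 2 higher, and 1 further replication gene was lower and 3 higher, against 8.25% of all probes lower and 10.3% higher. Wee1, the kinase that holds Cdk1 inactive, was among the lower (-2.79 ± 0.27, adjusted p = 4.23e-06), as was Cks2, a small subunit of CDK complexes (-1.61 ± 0.42), and Ttk, a spindle checkpoint kinase, was among the higher (1.31 ± 0.34). Of the further replication genes at D2, the single-strand binding subunit Rpa3 (1.14 ± 0.21), the origin binding subunit Orc5 and Rnaseh2a were higher than at D0, and Dbf4, the activator of the CDC7 kinase, was at least 2.31-fold lower.

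Regulators of both classes had their calls against D0. The list of E2F, RB and DREAM regulators also holds Myc, which is none of these. Of its 12 measured genes, 2 were higher and 3 lower at D2, against 10.3% of all probes higher and 8.25% lower. These are also the shares for the other lists at D2. None was called between D2 and D8, against 1.16% of all probes higher and 1.42% lower, and 0.01 was the median change of all probes and 0.08 that of the list. Myc fell by 3.09 ± 0.22 on the log2 scale (adjusted p = 2.4e-07), Mybl1 by 2.38 ± 0.41 and Foxm1, the activator of many G2/M genes, by 1.03 ± 0.26, whereas Rb1, which holds E2F factors in check, was 0.69 ± 0.23 higher and Tfdp2, a partner of the E2F factors, at least 1.93-fold higher. Of 12 S phase checkpoint and repair genes, Timeless (1.70 ± 0.29) and Chek2 (1.06 ± 0.30) were higher at D2 and Clspn, which relays the replication checkpoint, was at least 3.07-fold lower. The list of S phase histones and chromatin also holds Tubb5, a tubulin gene. Of its 14 measured genes, 6 were lower at D2, with Suv39h1 (-1.99 ± 0.29), Nasp (-1.88 ± 0.24), Hmgb2 (-1.81 ± 0.20) and H2ax (-1.68 ± 0.22) at the front. Tubb5 (2.21 ± 0.22) and Anp32e were higher. Of 11 p53 target and quiescence genes, 4 were lower at D2, led by Gadd45a (-3.44 ± 0.23), and Sesn1 was higher (1.25 ± 0.31).

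Of 9 measured D cyclin, CDK and inhibitor genes, Ccnd1 (-1.55 ± 0.32) and the inhibitor Cdkn1a (-2.12 ± 0.24) were lower at D2 than at D0, and Cdk4 (1.10 ± 0.18) and the inhibitor Cdkn2b, at least 9.55-fold, were higher. From D2 to D8 the 1 call of this list was Cdkn1a, higher by 1.02 ± 0.24 (adjusted p = 0.0349). The all-probe shares were 10.3% higher and 8.25% lower at D2 against D0, and 1.16% higher at D8 against D2.

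Markers of other cells were counted at D8 against D0, beside 8.1% of all probes lower and 9.91% higher. Of 11 measured fibroblast markers 3 were higher at D8 than at D0 (Col1a1, Col1a2 and Postn), and their summed raw signal was 10619 to 65262 at D8 and 3539 to 5112 at D0. Of 15 macrophage and leukocyte markers 4 were higher and 1 lower, with sums of 29198 to 47629 at D8 and 22566 to 36620 at D0. The red cell genes Hbb and Hba-a1 were lower among 6 erythroid markers, which summed to 1023 to 2093 at D8 and 32730 to 50452 at D0. Airway markers were lower in 7 of 8, with 3192 to 6583 at D8 and 43999 to 51231 at D0, lymphocyte markers in 3 of 8 (1329 to 1647 at D8 and 1775 to 1872 at D0), and the endothelial marker Cldn5 in 1 of 7 (1226 to 1525 at D8 and 1589 to 1958 at D0). At D8, 6 of 8 lymphocyte, 6 of 8 airway, 4 of 7 endothelial, 2 of 6 erythroid, 2 of 15 macrophage and 0 of 11 fibroblast markers were detected on no array. The part of these cells in the changes of the cell cycle genes was not tested.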

How the data were processed

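Raw BeadStudio signals of 15 rat RatRef-12 arrays, intensity values that the authors deposited without normalization between arrays, were used with the detection p-value deposited for each probe. The authors' own normalized log2 values (VSN through LUMI, R 2.11.1 per the labels) served as an alternative. VSN was fitted anew to the raw signals (trimming quantile 0.9, 7 rounds, 5 slices), and limma 3.58.1 in R 4.3.3 fitted 1 mean per day over all arrays and 22523 probes, with Benjamini-Hochberg adjustment per contrast. The pipeline was tested on simulated data.

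The genes and lists were chosen with earlier results of these data known. The genes given array by array are up to 8 G1/S and 12 G2/M genes with the largest change at D2 against D0, D8 against D2 or D8 against D0 among those called and with a detected signal on every array of the day that was brighter, which 8 and 11 met. From other lists up to 4 genes per direction are named by change at D2 or between D2 and D8. A fold against a day without detection is a lower bound, from the mean of the brighter day over, per array, the lowest signal among detected probes or the own signal, whichever is higher. Other normalizations, filters on dim probes, the 2 days alone, moderation with trend and a change of at least 1 were tried. Slide was tried as a term (slide 1 against the other slides), as a block and with slide 1 alone. Gene means, a regression on day and leaving out each array were also tried. The number of arrays limits the precision.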

Additional observations from a re-analysis of the deposited data

How the results depend on the processing

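No paired analysis was possible because the labels carry no replicate number that links arrays of different days. Counts below are genes called, and the cause of each shift was not tested. For G1/S genes, D8 against D2 gave 2 calls, 0 after scaling to a common median, 0 with the 2 days alone and 5 on slide 1 alone, and D8 against D0 gave 8, 3 after scaling to a common median and 13 on slide 1 alone. For G2/M genes, D2 against D0 gave 2 calls, 0 after scaling to a common median, 1 with a detection filter of 0.01, 1 with the 2 days alone, 1 with a change of at least 1, 6 with slide as a term and 5 as a block. D4 against D2 gave 0 calls, 1 each with neqc, quantile normalization and the authors' values, and 2 with slide as a term or block. D8 against D2 gave 5 calls, 1 after scaling to a common median, 2 with the 2 days alone, 16 with slide as a term, 14 as a block and 12 on slide 1 alone, and D8 against D0 gave 15, 7 after scaling to a common median. Leaving out each array gave, for G1/S genes, 2 to 3 calls at D2 against D0, 0 to 0 at D4 against D2, 0 to 3 at D8 against D2 and 4 to 9 at D8 against D0. For G2/M genes it gave 0 to 3, 0 to 0, 1 to 7 and 11 to 15. A linear regression on day called 9 G1/S and 14 G2/M genes lower, 23 in all, as did D8 against D0. For 29 changes of single genes, the alternatives counted were other normalizations, filters on dim probes and leaving out each array. None reversed in these, and 74 of the 609 alternatives lost the call and 6 gained it. Runs with slide, the 2 days alone, trend or gene means were not part of this count. The calls of Prc1 and Rrm2 at D8 against D2 were lost without 9 and 8 of the 15 arrays, each left out alone. Dim signals limit the folds of genes near background.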

Other observations

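On each day 1 slide 1 array held most of the highest values of the G2/M genes: position I at D0 (19 of 22 genes, 86.4%), position D at D2 (17, 77.3%), position K at D4 (19, 86.4%), position A at D6 (18, 81.8%) and position G at D8 (18, 81.8%). Over all probes these arrays were highest of their day in 30.4 to 34.3%. From D6 to D8 the median change over the G2/M genes was -0.76 within slide 1 and -0.33 within slide 3, where 1 array per day allows no test of that difference.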
